A study of Mus musculus with 947 samples.

Results

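Small noncoding RNA was compared between juvenile mice of 1 month and young adult mice of 3 months in limb muscle, skin and 3 white fat depots, the gonadal (GAT), mesenteric (MAT) and subcutaneous (SCAT) adipose tissue. Libraries were chosen by their tissue and age labels, which gave 44 of the 768 used from the aging cohort, and 39 of them entered a test. At 1 month there were 4 libraries of limb muscle, 5 of skin, 5 of GAT and 3 of MAT, and at 3 months there were 6, 6, 5 and 5. SCAT had 1 usable library at 1 month against 4 at 3 months, so its values are given with no test. A further SCAT library of 1 month, whose profile was closer to skin than to SCAT, was left out and is not among the 44. All mice were untreated C57BL/6JN animals of both sexes, the females virgin, perfused before dissection. Of the tested libraries, 1 of 4 (limb muscle), 1 of 5 (skin), 1 of 5 (GAT) and 0 of 3 (MAT) at 1 month came from a female, and 2 of 6, 2 of 6, 2 of 5 and 1 of 5 at 3 months. The muscle was the tibialis anterior, the skin dorsal and the subcutaneous fat the inguinal pad. The question asked was which RNAs change between these ages in more than 1 tissue.

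The labels do not say which tissues came from the same mouse. If mice are shared between tissues, p-values of a fit over the 4 tissues are too small. These are whole tissues, in which fewer cells of a type and less RNA per cell cannot be told apart.

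A miRNA is a short RNA that pairs with target messenger RNAs mainly through its seed, bases 2 to 8, and lowers their stability and translation. Several miRNA genes lie in imprinted domains, in which only the maternal or only the paternal copy is transcribed. The Dlk1-Dio3 domain is the richest of these. Its maternal copy yields the noncoding RNAs Meg3, Rian and Mirg and a long array of miRNAs, which are abundant in the embryo and in growing tissue. Other growth loci with imprinted miRNAs are Igf2, whose intron holds miR-483, H19, the host of miR-675, and the Gnas domain, where miR-296 and miR-298 lie. The miR-29 family is known for repressing collagens and other matrix genes. The miR-322 and miR-503 cluster on the X chromosome slows the cell cycle in differentiating muscle cells, and miR-206 is made in skeletal muscle and in its dividing precursors.

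The sequences printed next are those of the miRNAs that carried these changes, credited to RefSeq (GRCm38.p6), with the seed in capitals. The -3p members of the miR-29 family share 1 seed. They come from a pair of sites, at chr6:31062673-31063088 on the minus strand and at chr1:195037050-195037621 on the plus strand, where miR-29b-2 and miR-29c lie in an exon of A330023F24Rik.
miR-29a-3p: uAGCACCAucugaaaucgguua
miR-29b-3p: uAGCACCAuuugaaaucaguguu
miR-29c-3p: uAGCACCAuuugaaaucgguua

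The miRNAs of the Dlk1-Dio3 domain lay between positions 109563710 and 109747949 of chromosome 12 on the plus strand, with 2 exceptions among 96 members matched. Those shown have different seeds. miR-412, miR-382, miR-541, miR-369 and miR-409 lie in introns of Mirg and miR-341 in an intron of Rian.
miR-412-5p: uGGUCGACcagcuggaaaguaau
miR-382-5p: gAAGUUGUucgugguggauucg
miR-541-5p: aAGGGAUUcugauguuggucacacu
miR-369-3p: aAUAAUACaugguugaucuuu
miR-409-3p: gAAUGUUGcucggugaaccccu
miR-376a-3p: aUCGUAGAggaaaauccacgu
miR-380-3p: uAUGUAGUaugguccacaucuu
miR-540-3p: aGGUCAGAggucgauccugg
miR-341-3p: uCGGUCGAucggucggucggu

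The other imprinted growth loci gave miR-483 (chromosome 7, in an intron of Igf2) and the pair miR-296 and miR-298 (chr2:174267058-174267575, minus strand).
miR-483-5p: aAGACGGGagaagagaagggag
miR-296-5p: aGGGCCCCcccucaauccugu
miR-298-5p: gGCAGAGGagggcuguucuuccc

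The X-linked cluster spans chrX:53048008-53054327 on the minus strand. Of its members, miR-322-5p has the seed of miR-16-5p and miR-195a-5p, of which the latter pair rose.
miR-322-5p: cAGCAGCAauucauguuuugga
miR-503-5p: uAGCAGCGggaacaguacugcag
miR-16-5p: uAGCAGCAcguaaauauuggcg
miR-195a-5p: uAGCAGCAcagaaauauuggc
miR-351-5p: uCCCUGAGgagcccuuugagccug
miR-542-3p: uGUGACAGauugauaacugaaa
miR-450a-5p: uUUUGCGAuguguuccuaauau

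The muscle miRNA miR-206 and, among the other miRNAs that rose, a pair of miR-10 and a pair of miR-30 members with shared seeds complete the set.
miR-206-3p: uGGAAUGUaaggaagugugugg
miR-10a-5p: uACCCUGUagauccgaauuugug
miR-10b-5p: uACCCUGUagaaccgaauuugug
miR-30a-5p: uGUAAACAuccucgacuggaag
miR-30c-5p: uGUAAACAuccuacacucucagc

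The deposited values are a signal in reads per 1000000 mapped reads (rpmm). Summed over RNAs, they exceeded 1000000 rpmm in every tested library, so sums of them are not fractions of the reads. In limb muscle this sum was 2673250 to 5136600 rpmm at 1 month and 1831000 to 2904100 at 3 months. The ages overlapped in it in all 4 tested tissues. Its part in the calls on rpmm was not tested. Aligned reads of the tested libraries, in units of 1000000, ranged from 5.78 to 47.8, and groups of 3 to 6 libraries limit the precision. The summed miRNA signal was 123181 to 705382 rpmm in all but 1 of them, replicate 21 of MAT at 1 month, which held 29660 rpmm. In limb muscle at 1 month, replicate 21 held 131491 rpmm of miRNA against a median of 551895 in the group. Because miRNA content differed between libraries, miRNAs were also expressed per 1000000 of the summed miRNA signal of their library, named the miRNA-scaled level here, in units of miRNA rpm. This scale and the fits below that use it were chosen after the data were seen. The MAT replicate 21 also held 176584 miRNA rpm of white blood cell miRNAs and 40580 miRNA rpm of neuronal miRNAs, against at most 19715 and 4390 in the other MAT libraries of 1 month. Labels and tissue markers matched in limb muscle and skin. Muscle miRNAs made up 459283 to 658873 miRNA rpm in limb muscle. Skin and epithelial miRNAs made up 77679 to 129621 miRNA rpm in skin and at most 4574 in any other tested tissue. The fat cell miRNAs did not set the fat depots apart. Their mean at 1 month was 134465 miRNA rpm in limb muscle, 116773 in GAT and 79999 in MAT. At 3 months it was 89037, 86592 and 45322.

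As deposited, with all RNA classes tested at an adjusted p under 0.05 (limma, two-sided, Benjamini-Hochberg), 93 RNAs were higher and 586 lower at 3 months in limb muscle, 2.61% and 16.4% of 3567 tested. Without replicate 21 of 1 month the counts were 5 and 77. In skin, GAT and MAT limma called 0 RNAs of 3313, 3392 and 3357, while 86, 80 and 568 had an unadjusted p under 0.05. edgeR with TMM on the recovered reads called 0 in each of the 4 tissues, with 1077, 96, 156 and 497 at an unadjusted p under 0.05. On this scale no RNA was called in 2 tissues.

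On the miRNA-scaled level, limb muscle had 31 miRNAs higher and 104 lower at 3 months (5.71% and 19.2% of 543), skin 4 and 31 (0.739% and 5.73% of 541), GAT 2 and 13 (0.332% and 2.16% of 603), and MAT 0 and 0 of 586. edgeR with TMM on the miRNAs called 62 higher and 86 lower in limb muscle, 8 and 26 in skin and 2 and 0 in GAT. In MAT 52 miRNAs had an unadjusted p under 0.05, 5 of them higher and 47 lower, and edgeR also called 0 there, with 58 at an unadjusted p under 0.05. Of these calls, 31 miRNAs were called in the same direction in 2 or more tissues, 3 higher and 28 lower, and 0 were called in opposite directions. Of the 28, 19 were of the Dlk1-Dio3 cluster, 3 of the miR-322 and miR-503 cluster and 4 of the other imprinted growth loci. miR-29a-3p (higher), miR-412-5p and miR-487b-3p (both lower) were called in 3 tissues, limb muscle, skin and GAT. GAT had 0 calls without replicate 8 of 1 month or with the set of 12 title numbers as a covariate, which left 0 miRNAs called in 3 tissues. With edgeR 16 miRNAs were called in 2 or more tissues, 4 higher and 12 lower.

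A single age difference common to the 4 tissues was then fitted to the 475 miRNAs tested in all of them, under 4 scalings (rpmm, miRNA-scaled, median-ratio and edgeR with TMM). The scaling set the balance of directions: 80 miRNAs were higher and 32 lower on rpmm (16.8% and 6.74%), 28 and 143 on the miRNA-scaled level (5.89% and 30.1%), 86 and 73 scaled by median ratios (18.1% and 15.4%), and 79 and 88 by edgeR (16.6% and 18.5%). The median log2 fold change of all 475 moved with it, at 0.22, -0.30, -0.00214 and -0.04. Therefore only miRNAs called under all 4 are named scale-stable below, 27 higher (5.68%) and 30 lower (6.32%). This does not require the same direction in each tissue: 18 of the 27 and 28 of the 30 had it in all 4 on the miRNA-scaled level, and the others in 3. Of the 30, 18 belonged to the Dlk1-Dio3 cluster, of which 64 members were tested, and of the 27, 0 did.

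Of the 30 that fell, judged on the miRNA-scaled level, 30 remained called with each of the 39 libraries left out in turn, 30 with males only, 29 without both replicates 21, 29 with the library plate as a covariate, and 28 with the set as a covariate, a set being a run of 12 such numbers. Of the 27 that rose, 19 remained with each library left out in turn, 24 with males only, 17 without both replicates 21, 20 with the plate and 12 with the set as a covariate. The median of all miRNAs is below 0 on this scale, and the same check was not run on rpmm. The 12 included miR-29a-3p, miR-29b-3p, miR-29c-3p, miR-29c-5p, miR-664-3p, miR-101a-3p, miR-101c, miR-10a-5p, miR-10b-5p and miR-195a-5p.

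**Figure D1:**
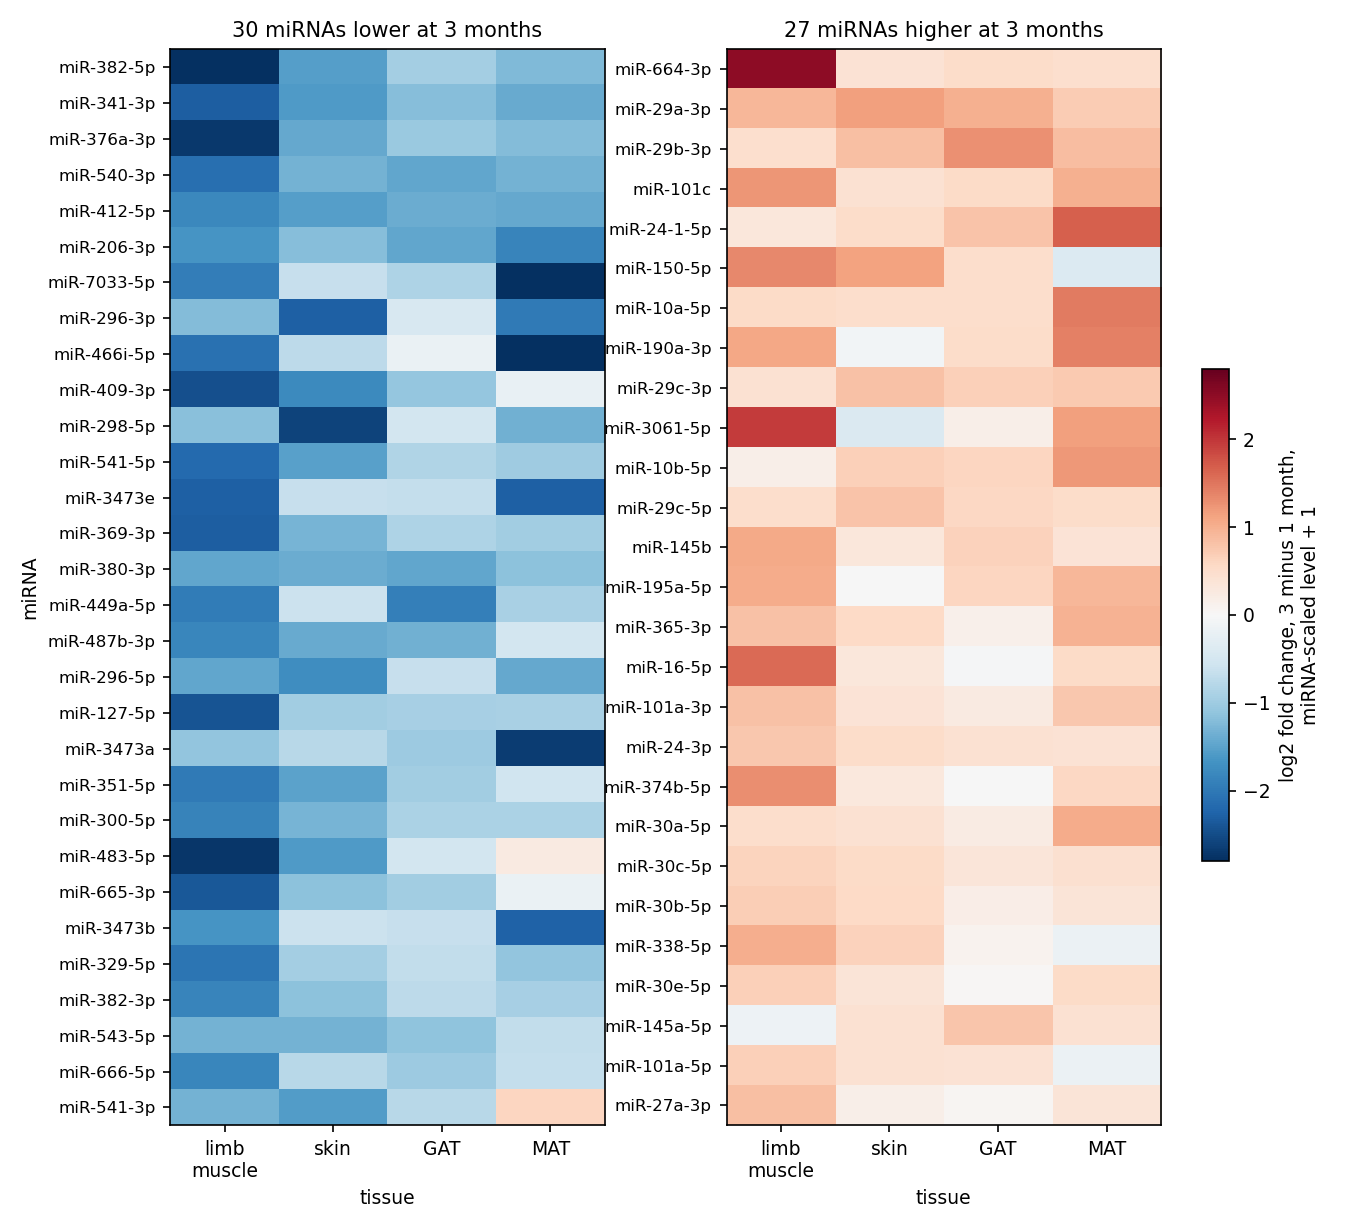
Log2 fold change of the miRNA-scaled level (plus 1) from 1 to 3 months in each tested tissue, for the 30 miRNAs that were lower (left) and the 27 that were higher (right) under all 4 scalings. Blue is lower and red higher at 3 months; the strongest decrease was in limb muscle for 20 of the 30 on the left, and miR-483-5p and miR-541-3p have a positive value in MAT.

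miRNAs of the Dlk1-Dio3 cluster were lower at 3 months in limb muscle, skin and GAT. On the miRNA-scaled level 47 of 71 members tested were called lower in limb muscle, 12 of 72 in skin, 13 of 66 in GAT and 0 of 71 in MAT, with 0 called higher, against 19.2%, 5.73%, 2.16% and 0% of all miRNAs called lower. Without replicate 21, 57 of 71 were called in limb muscle. All 13 miRNAs called lower in GAT were members, but edgeR called 0 lower there, and so did limma without replicate 8 of 1 month or with the set as a covariate. The median log2 fold change of the cluster was -1.33, -1.09, -0.84 and -0.49 in the 4 tissues, against -0.28, -0.13, -0.17 and -0.54 over all miRNAs. In MAT the median was thus near that of all miRNAs, or -0.32 against -0.10 without replicate 21. On rpmm 19 of 71 were called lower in limb muscle and 0 in the others, and 67 of 71 stood above 0 in MAT, where the median was 0.52 against 0.49 over all miRNAs. With replicate 21 included, the cluster in MAT thus stood near the median of all miRNAs on either scale. By single members, 17 of 71 were lower without overlap of the ages in MAT on the miRNA-scaled level, against 9.56% of all miRNAs.

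The summed miRNA-scaled level of the cluster shows the size of the change. In limb muscle the 1-month libraries held 19798, 15615, 37103 and 27310 miRNA rpm, and the 6 libraries of 3 months held 4474 to 6742 with a median of 5324. The groups did not overlap, and the mean was 4.55-fold lower at 3 months (24957 ± 9433, SD, n = 4, against 5482 ± 801, n = 6). In GAT the level went from 12606, 11142, 12753, 10834 and 11846 miRNA rpm to 5819, 6291, 5655, 5544 and 6605. These groups did not overlap either, and the mean was 1.98-fold lower. In MAT the 3 libraries of 1 month held 7920, 16815 and 6877 miRNA rpm, the highest being replicate 21, and those of 3 months held 5552, 8369, 6007, 5436 and 5149. These ranges overlapped. The SCAT library of 1 month held 17766 miRNA rpm against 6345, 17984, 6560 and 5110 at 3 months, of which the 17984 is the shallowest library, with aligned reads of 3.18 in units of 1000000.

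In skin the level of the Dlk1-Dio3 cluster differed between the sexes as well. At 1 month the 4 male libraries held 23685, 25057, 23916 and 25491 miRNA rpm and the female library 10126. At 3 months the 4 male libraries held 16222, 18229, 16517 and 13014, and the 2 female libraries 4499 and 3663. The age groups overlapped when pooled but not within either sex. Muscle miRNAs, which the skin libraries also held, differed between the sexes at 3 months as well: the 2 female libraries held 17856 and 38512 miRNA rpm of them and the 4 males 114703 to 184015. At 1 month the female library held 71678, within the 69335 to 104984 of the males. With age the muscle miRNAs of the males were thus higher, while their Dlk1-Dio3 level was lower. The part of muscle content in the skin result was not tested. With males only, skin had 14 miRNAs called higher and 62 lower on the miRNA-scaled level.

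**Figure D2:**
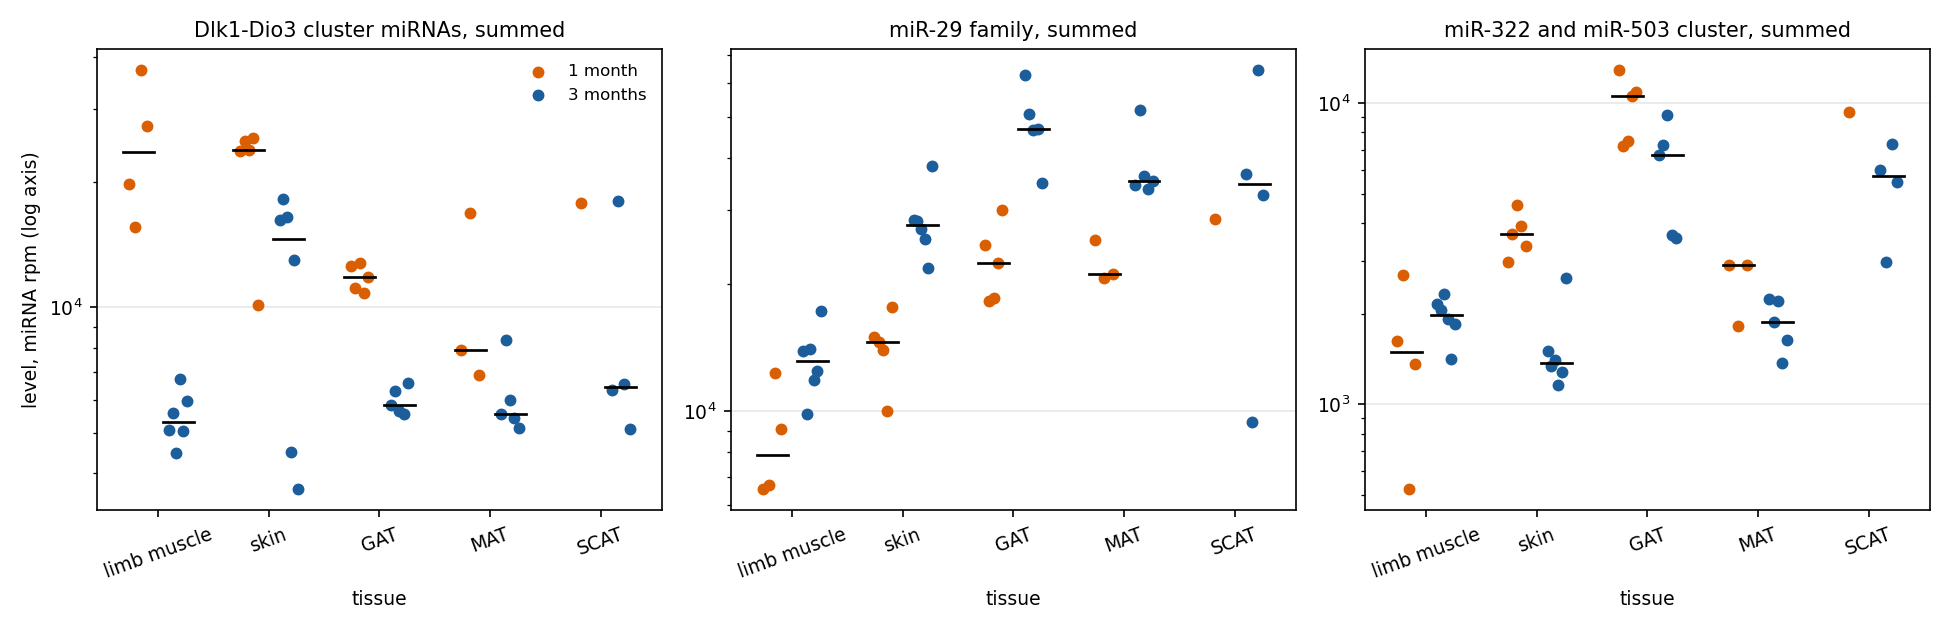
Summed miRNA-scaled level (log axis) of the Dlk1-Dio3 cluster, the miR-29 family and the miR-322 and miR-503 cluster in each library of 1 month (orange) and 3 months (blue), with the group median as a line where a group has more than 1 library. The ages separate in limb muscle and GAT for the Dlk1-Dio3 cluster, in skin, GAT and MAT for the miR-29 family, and in skin for the miR-322 and miR-503 cluster, where SCAT has a single library at 1 month.

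On the miRNA-scaled level, the age groups of miR-412-5p were apart in all 4 tested tissues. It held 43.6, 48.9, 51.8 and 56.1 miRNA rpm at 1 month in limb muscle and 10.6 to 19.7, median 12.9, at 3 months. In skin it held 11.4, 11.2, 18.3, 16.7 and 8.74 and then 1.46 to 5.93, median 5.25. In GAT it held 11.9, 7.34, 5.47, 6.09 and 7.49 and then 1.18, 2.24, 1.82, 2.96 and 3.27. In MAT it held 8.45, 22.9 and 7.72 and then 3.31, 2.77, 3.56, 4.37 and 4.34, so every library of 3 months lay below every library of 1 month. The 22.9 is replicate 21, where the scaling raises values most, since its summed miRNA signal was 29660 rpmm. The separation in MAT is given for this scale only. The log2 fold change was -1.80 ± 0.25 (SE, adjusted p = 0.00033) in limb muscle, -1.53 ± 0.34 (0.0148) in skin, -1.39 ± 0.27 (0.035) in GAT and -1.44 ± 0.42 (0.439) in MAT, by limma on the miRNA-scaled level. Its common difference was -1.54 ± 0.16, with an adjusted p of 1.1e-09. Groups that did not overlap and were lower made up 15.3%, 3.88%, 5.97% and 9.56% of the miRNAs of limb muscle, skin, GAT and MAT.

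miR-382-5p fell most among the scale-stable members, with a common log2 fold change of -1.64 ± 0.21 (adjusted p = 1.97e-07, limma). In limb muscle it went from 276, 181, 483 and 217 miRNA rpm to 29.4 to 47.5, median 38.2. In GAT it went from 83.5, 91.1, 94.9, 62.8 and 66.98 to 31.1, 35.8, 32.8, 51.04 and 57.4, also without overlap, although the adjusted p there was 0.0687. miR-127-3p, the member antisense to Rtl1, a gene of placenta and fetal muscle, held 4938, 3168, 14008 and 9852 miRNA rpm at 1 month in limb muscle and 779 to 1570, median 1170, at 3 months (log2 fold change -2.57, adjusted p = 0.000408). In skin its groups overlapped, at 3727 and 2302 in the median, with a log2 fold change of -1.03 and an adjusted p of 0.3. Its common difference missed the threshold on rpmm (adjusted p = 0.0972) and passed it on the other 3 scalings, so it is not among the scale-stable 30.

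Host RNAs of the domain, Meg3, Rian and Mirg, were tested as transcripts on rpmm. In limb muscle 28 of 63 were called lower and 0 higher, against 29.3% of all 1565 lncRNAs tested. Of the 28, 26 were isoforms of Rian, which share reads with each other and with the small RNAs they host. Without replicate 21, Rian had 2 isoforms called and Meg3 and Mirg 0. In skin limma called 0, and 62 of 63 stood below 0, with a median log2 fold change of -0.68 against -0.25 over all lncRNAs. In GAT 49 of 54 stood below 0, with a median of -0.41 against -0.05, and 0 were called. In MAT 46 of 56 stood above 0, with a median of 0.70 against -1.0005, and 0 were called. In MAT without replicate 21, 42 of 48 Rian isoforms stood below 0, with a median of -0.06. This was above the -0.36 over all lncRNAs in the same fit. edgeR with TMM called 0 RNAs in each of these tissues.

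H19, the imprinted RNA that hosts miR-675 and is abundant in fetal muscle, was tested on rpmm as 7 isoforms in limb muscle and 3 in skin. In limb muscle 4 of 7 were called lower, against 29.3% of all lncRNAs. Without replicate 21, 3 of 7 were called, against 22 of 1565 lncRNAs. The median log2 fold change was -1.62 there, against -0.44 over all lncRNAs. In skin it was -1.17 against -0.25, with 0 called. The isoform H19 (ENSMUST00000136359.7) is shown. In limb muscle this isoform held 34.96, 31.9, 36.2 and 54.98 rpmm at 1 month and 5.50 to 19.3 rpmm, median 7.34, at 3 months. The groups did not overlap, and the log2 fold change was -1.97 ± 0.45 (SE) with an adjusted p of 0.0275 (limma, all RNAs, rpmm), or -1.999 with 0.0395 without replicate 21. In skin it went from 3.15, 2.56, 6.17, 6.18 and 1.21 rpmm to 0.470 to 1.13, median 0.785, without overlap, at a log2 fold change of -1.32 and an adjusted p of 0.241. The SCAT library of 1 month held 4.05 rpmm and those of 3 months 0 to 0.346.

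Of the other imprinted growth loci, summed, the mean level was 2.92-fold lower at 3 months in limb muscle and 3.68-fold lower in skin, both without overlap. In GAT it went from 495 to 505 miRNA rpm, with miR-335-5p, the most abundant member there, at 429 and 454, and in SCAT from 281.6 to 297.7. Of their 5 members tested in all 4 tissues, 4 were scale-stable and lower: miR-296-5p, miR-296-3p, miR-298-5p and miR-483-5p. miR-296 and miR-298 together held 14.7, 10.8, 16.6 and 10.6 miRNA rpm in limb muscle at 1 month and 1.84 to 5.20, median 3.12, at 3 months. In skin they held 18.8, 65.6, 42.1, 53.5 and 66.1 and then 4.75 to 13.2, median 7.75. In MAT they held 15.0, 177 and 13.7 and then 8.84, 13.4, 9.72, 6.75 and 6.51, the 177 being replicate 21. The ages were apart in these 3 tissues and overlapped in GAT, where the means were 41.1 and 28.4. miR-298-5p fell by 2.60 ± 0.34 on the log2 scale in skin (adjusted p = 0.000643, limma) and by 1.16 ± 0.25 in limb muscle (adjusted p = 0.00478).

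The age difference of miR-483-5p differed between tissues. In limb muscle it held 85.1, 87.8, 61.95 and 47.997 miRNA rpm at 1 month and 7.04 to 13.0, median 9.76, at 3 months. In skin it held 8.90, 7.42, 10.7, 7.43 and 4.77 and then 1.1997 to 2.88, median 1.78. In GAT it held 1.58, 2.14, 6.50, 3.28 and 1.58 and then 1.06, 1.46, 2.32, 1.15 and 2.18, and in MAT it was at most 1.38 in any library. The ages were apart in limb muscle and skin and overlapped in both fat depots. The interaction of tissue and age had an adjusted p of 5.66e-05 (limma F test), with log2 fold changes of -2.72, -1.58, -0.51 and 0.26, and it stayed under 0.05 with each of the 39 libraries left out (at most 0.000363). Limb muscle differed from GAT (adjusted p = 0.00349) and from MAT (9.63e-05), and skin from MAT (0.0362). The difference between limb muscle and skin had an adjusted p of 0.186. Since the level in MAT is close to the pseudocount of 1, a change there could hardly be seen. In GAT the means were 3.01 and 1.63 miRNA rpm, also near the pseudocount. The fold change there is thus understated, which bears on the difference of limb muscle from GAT.

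The miR-322 and miR-503 cluster fell in skin. There 10 of 11 members tested were called lower, against 3 of 11 in limb muscle, 0 of 12 in GAT and 0 of 12 in MAT, where 5.73%, 19.2%, 2.16% and 0% of all miRNAs were. The summed level in skin was 2967, 3677, 4583, 3918 and 3352 miRNA rpm at 1 month and 1163 to 2623, median 1371, at 3 months, without overlap, a 2.38-fold lower mean. In GAT the cluster held more than in skin and its ages overlapped, at 12827, 7169, 7447, 10553 and 10890 and then 6720, 7235, 9134, 3658 and 3575. Within the cluster the largest change in skin was that of miR-542-3p, with a log2 fold change of -2.05 ± 0.27 and an adjusted p of 0.000643 (limma, miRNA-scaled).

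Members of the miR-322 and miR-503 cluster were not alike. miR-322-5p, its most abundant member, held 1187, 2205, 153 and 812 miRNA rpm at 1 month in limb muscle, the 153 being replicate 21, and 1174 to 2064, median 1726, at 3 months. Its log2 fold change was 1.15 ± 0.56 there (adjusted p = 0.144) and -1.24 ± 0.23 in skin (0.00419). The difference between skin and limb muscle had an adjusted p of 0.0387, but the interaction over the 4 tissues missed the threshold at 0.0558, and at 0.085 without both replicates 21. miR-351-5p was lower under all 4 scalings, with -1.99 ± 0.30 in limb muscle (adjusted p = 0.000408) and -1.49 ± 0.30 in skin (adjusted p = 0.00851), and it is the 1 member among the scale-stable 30.

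**Figure D3:**
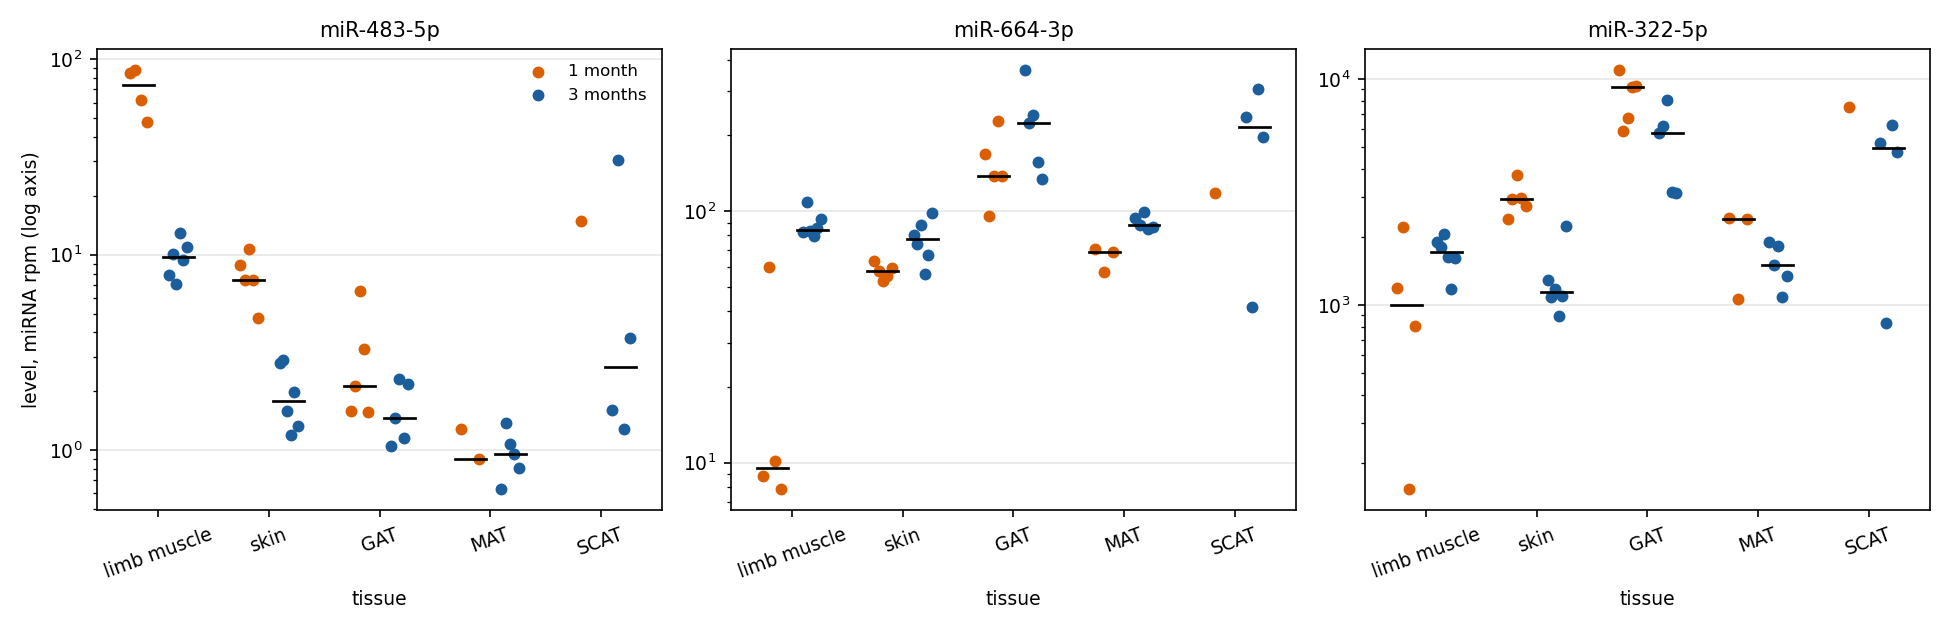
miRNA-scaled level (log axis) of miR-483-5p, miR-664-3p and miR-322-5p in each library of 1 month (orange) and 3 months (blue), with the group median as a line. A library at 0 (miR-483-5p in MAT replicate 21 of 1 month) cannot be drawn on the log axis. miR-483-5p separates by age in limb muscle and skin, miR-664-3p in limb muscle and MAT, and miR-322-5p in skin.

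The miR-29 family rose. Its summed level went from 15030, 14643, 13993, 10015 and 17718 miRNA rpm in skin to 21872 to 38135, median 27653. In GAT it went from 24802, 18318, 18568, 22540 and 30090 to 62659, 50700, 46640, 46867 and 34761. In MAT it went from 25565, 20691 and 21172 to 34515, 51773, 36177, 33612 and 35166. The ages were apart in these 3 tissues, with means 1.98-, 2.11- and 1.702-fold higher at 3 months. In limb muscle the 6534, 6701, 12300 and 9062 of 1 month overlapped the 9874 to 17311 of 3 months, with the 12300 again in replicate 21. In SCAT the library of 1 month held 28646 miRNA rpm and those of 3 months 36656, 9437, 64490 and 32668.

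By member, miR-29a-3p rose by 0.93 ± 0.28 on the log2 scale in limb muscle (adjusted p = 0.0312), 1.15 ± 0.17 in skin (0.00108) and 0.99 ± 0.21 in GAT (0.035), and its value in MAT was 0.72 ± 0.23 (0.439). The call in GAT was lost without replicate 8 of 1 month and with the set as a covariate. Its levels were 6977, 7476, 6527, 4561 and 7348 miRNA rpm in skin at 1 month and 12592 to 17448, median 14325, at 3 months. In GAT they were 11927, 6821, 8494, 11306 and 11977 and then 22231, 17880, 20747, 21507 and 16078. The highest library of 1 month was thus below the lowest of 3 months in both. Of the 7 members tested, miR-29a-3p, miR-29b-3p, miR-29c-3p and miR-29c-5p were scale-stable. Single members did not overlap in 0, 2, 2 and 3 of 7 cases, against 3.68%, 0.739%, 0.498% and 1.02% of all miRNAs that were higher without overlap in limb muscle, skin, GAT and MAT. All 7 were called higher in the common fit on rpmm and 4 of 7 on the miRNA-scaled level.

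Other miRNAs rose by less. The scale-stable ones include 4 of the miR-30 family, known for its role in fat cell formation (miR-30a-5p 0.52 ± 0.20, with miR-30b-5p, miR-30c-5p and miR-30e-5p), 3 of miR-101 (miR-101a-3p 0.53 ± 0.12), miR-24-3p (0.53 ± 0.15), miR-10a-5p (0.70 ± 0.21) and miR-10b-5p, on the common log2 scale with the miRNA-scaled level. The miR-30 members lost their calls with the set as a covariate and without both replicates 21. miR-16-5p and miR-195a-5p, which hold back the cell cycle, rose by 1.58 ± 0.31 and 1.04 ± 0.31 in limb muscle (adjusted p = 0.00256 and 0.0273). In skin their log2 fold changes were 0.32 and -0.01.

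miR-150-5p, a miRNA of mature lymphocytes, held 351, 263, 295 and 225 miRNA rpm in limb muscle at 1 month and 444 to 1258, median 679, at 3 months. In skin it held 345, 392, 309, 306 and 432 and then 546 to 1300, median 795. The ages were apart in both (log2 fold change 1.34 ± 0.29, adjusted p = 0.00517, and 1.12 ± 0.24, adjusted p = 0.0108, limma). In GAT they overlapped, at 1437, 1252, 1234, 3238 and 1747 and then 3579, 4033, 3405, 1324 and 1081, and in MAT replicate 21 of 1 month held 6171 against 454 and 349 in the other 2. The summed white blood cell miRNAs were lower at 3 months by their medians, at 13754 and 8261 in limb muscle and 26747 and 23212 in skin, and their part in the rise of miR-150-5p was not tested.

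miR-206-3p was lower at 3 months under all 4 scalings, with a common log2 fold change of -1.51 ± 0.30 (adjusted p = 0.000133, limma). In limb muscle it held 18816, 21326, 32555 and 5137 miRNA rpm and then 3044 to 10966, median 4394. In skin it held 8026, 5336, 8008, 12582 and 5365 and then 1505 to 7434, median 3842. In MAT it held 25.1, 91.4 and 35.1 and then 13.5, 9.69, 13.6, 9.98 and 10.8. The ages were apart in MAT alone, and limb muscle was the only tissue with a call (adjusted p = 0.0281), which replicate 21 of 1 month bore on: without it, 0 muscle miRNAs were called. The other muscle miRNAs miR-1a-3p and miR-133a-3p had log2 fold changes of 1.16 and 0.10 in limb muscle, with adjusted p-values of 0.0662 and 0.836.

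miR-664-3p rose in limb muscle from 8.88, 59.8, 10.2 and 7.85 miRNA rpm to 79.5 to 108, median 84.4, a log2 fold change of 2.52 ± 0.46 (adjusted p = 0.00158). In skin it held 63.1, 57.6, 52.5, 55.3 and 59.6 and then 56.1 to 97.8, median 77.4, with a log2 fold change of 0.40. The low level in 3 of the 4 muscle libraries of 1 month set this tissue apart (interaction adjusted p = 0.0136). With 1 of the 39 libraries left out the interaction reached 0.0797, and it held in 37 of 39 cases. On rpmm it was 0.241 and with males only 0.138. Of the 475 miRNAs 5 passed the interaction test (1.05%), the other members being miR-3061-5p, miR-574-5p and miR-106a-5p. Without replicate 21 of limb muscle at 1 month, 1 miRNA passed, miR-483-5p. miR-3061-5p had log2 fold changes of 1.96 in limb muscle, -0.40 in skin, 0.16 in GAT and 1.16 in MAT. On rpmm, 15 of 3081 RNAs passed (0.487%).

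Other lists are given by the common fit on the miRNA-scaled level. Of all 475 miRNAs, 28 were higher (5.89%) and 143 lower (30.1%) in this fit, which the counts of each list are to be read against. Of the miR-17-92 and related clusters, 2 of 16 were lower in the common fit (median log2 fold change -0.22), with miR-18a-5p at -0.91 ± 0.13. Of let-7 and its kin 3 of 21 were lower (median -0.07), of miR-99, miR-100 and miR-125 4 of 11 (0.06), and of the fat cell miRNAs 2 were higher and 5 lower of 24 (-0.05). Of the fibroblast miRNAs 3 of 6 were lower (-0.38), of the rodent-specific Sfmbt2 cluster 11 of 23 (-0.43), and of the skin and epithelial miRNAs 0 of 13 were called (-0.27), against -0.30 over all 475. Of the hair cycle miRNAs 2 were higher and 1 lower of 12, of the vessel miRNAs 2 and 1 of 11, of the white blood cell miRNAs 1 and 3 of 10, of the neuronal miRNAs 1 and 2 of 12, and of the red blood cell miRNAs 0 of 6. Limma called 0 of the 4 pancreas, 5 gut and kidney and 2 liver miRNAs, and 1 of the 5 germ line and epididymis miRNAs, miR-449a-5p, was lower. By summed level the Sfmbt2 cluster held 661, 6269 and 644 miRNA rpm at 1 month in MAT, the 6269 being replicate 21, and 377 to 598, median 418, at 3 months. White blood cell miRNAs held 19715, 176584 and 18600 there and then 13029 to 16984, median 16805. These ages were apart, as were those of the white blood cell miRNAs (1.57-fold lower) and the germ line and epididymis miRNAs (2.09-fold lower) in limb muscle.

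RNAs other than miRNAs changed with the scaling. In the common fit to all 3081 RNAs, 191 were higher and 667 lower on rpmm (6.2% and 21.6%), 295 and 21 when scaled by median ratios, but 42 and 1834 under miRNA scaling. The median log2 fold change of all RNAs was -0.33, -0.01 and -0.95. Of the snoRNAs (381 tested) 91 were higher and 13 lower on rpmm, 146 and 1 when scaled by median ratios, but 12 and 66 under miRNA scaling. Their median log2 fold change was 0.23, 0.60 and -0.28, above that of all RNAs on each scaling. Of 563 snRNAs 0 were higher and 113 lower on rpmm, 1 and 8 when scaled by median ratios, and 0 and 477 under miRNA scaling. In limb muscle, among the largest called changes, the snoRNA Snord110 went from a mean of 543 to 1369 rpmm (log2 fold change 3.36, adjusted p = 0.0276, and 0.0842 without replicate 21). Each of 8 classes held a share of a library's signal, which is not a share of its reads. These shares passed the threshold in none of 32 comparisons after adjustment (exact permutation test, two-sided, adjusted p at least 0.325). With so few libraries a group, the smallest possible exact p of a single comparison could not pass this adjustment by itself. No conclusion on equal shares is drawn. The miRNA share in limb muscle was 24.4% ± 12.7 (SD, n = 4) at 1 month and 40.02% ± 7.50 (n = 6) at 3 months, with an exact permutation p of 0.0381 and an adjusted p of 0.325.

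The 139 libraries of 6 to 27 months of the same tissues, which the comparison did not use, show how levels went on. Per the paper, females were sampled up to 21 months only, so older libraries came from males. Sex and age are thus mixed in these medians and slopes. In limb muscle the Dlk1-Dio3 cluster had a median of 23554 miRNA rpm at 1 month, 5324 at 3 months, 1237 at 6 months, 901 at 12 months and 551 at 27 months. Its slope over 6 to 27 months was below 0 for 71 of 71 members and called falling for 34, against 59 of 543 miRNAs (10.9%). The median slope of all miRNAs was also below 0 there, at -0.19 on the log2 scale per 12 months, against -0.57 for the cluster. In skin the medians were 23916, 14618, 9077, 4665 and 1769 at the same ages, and 21 of 72 members were called falling, against 57 of 541 (10.5%). In GAT they were 11846, 5819, 3455, 3436 and 2522, and in MAT 7920, 5552, 6234, 4857 and 5054. limma called 0 members in either fat depot, while 56 of 66 and 65 of 71 slopes were below 0. The median slopes of the cluster were -0.16 in GAT and -0.13 in MAT, against 0.05 and 0.14 over all miRNAs. Over all miRNAs, limma called 24 of 603 rising (3.98%) and 0 falling in GAT, where 22 had a falling slope at an unadjusted p under 0.05, and 12 rising (2.05%) and 2 falling (0.341%) of 586 in MAT. With the set as a covariate, the members miR-127-3p, miR-341-3p and miR-543-5p lost their falling call in skin, while miR-379-5p and miR-540-3p kept it. With males only, slope calls over all miRNAs were fewer in limb muscle and more in skin.

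The miR-29 family had a median of 7882 miRNA rpm at 1 month, 13184 at 3 months and 23947 at 6 months in limb muscle, and between 19099 and 25353 at the later ages. In skin the median was 14643, 27653 and 29829 at 1, 3 and 6 months and 40842 at 27 months, and 3 of 7 members were called rising over 6 to 27 months, against 6 of 541 miRNAs (1.11%). miR-29a-3p rose there by 0.39 ± 0.11 on the log2 scale per 12 months (adjusted p = 0.0167). In GAT the median was 22540, 46867 and 58781 at 1, 3 and 6 months and in MAT 21172, 35166 and 43248, and limma called 0 members in either of these or in limb muscle. Of the scale-stable 30 that fell, 11 were called falling over 6 to 27 months in limb muscle and 6 in skin, against 10.9% and 10.5% of all miRNAs. In GAT 2 of the 30 were called rising, against 3.98% of all miRNAs. Of the 27 that rose, 4 were called rising in skin and 1 in MAT, against 1.11% and 2.05% of all miRNAs.

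**Figure D4:**
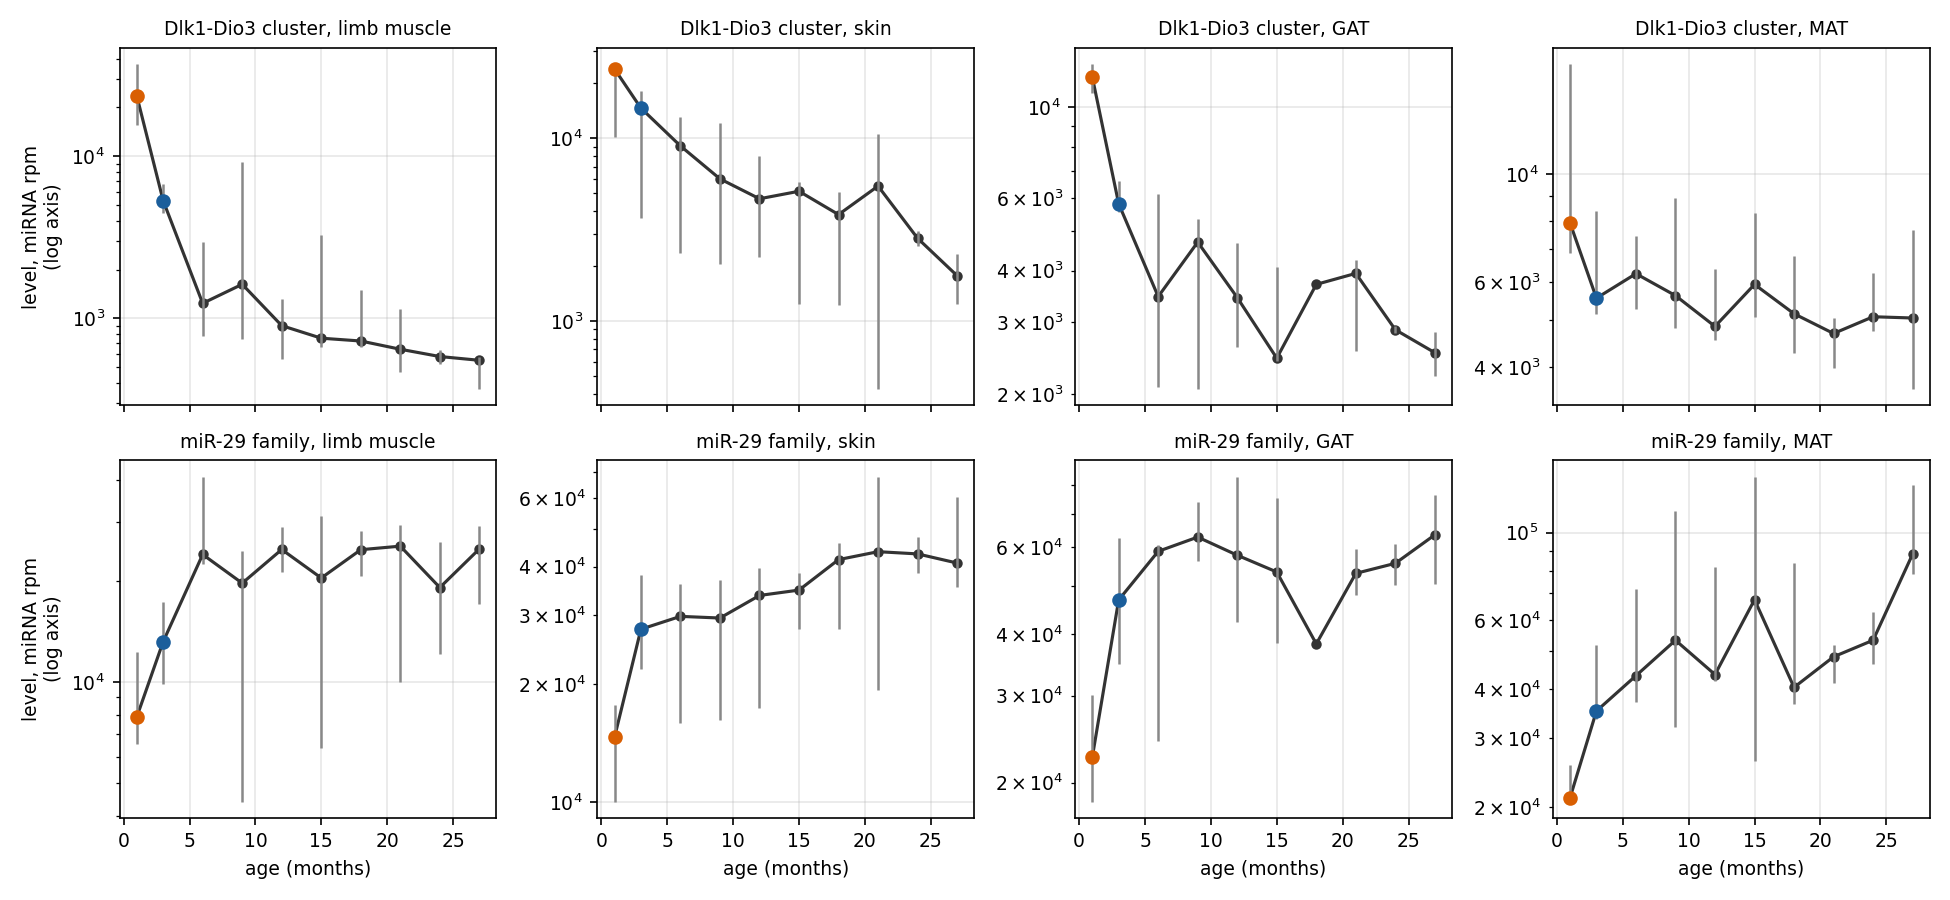
Median summed miRNA-scaled level (log axis) of the Dlk1-Dio3 cluster (top) and the miR-29 family (bottom) by age in months in the 4 tested tissues, with grey bars from the lowest to the highest library and 1 month in orange and 3 months in blue. The Dlk1-Dio3 median falls from 23554 to 551 miRNA rpm between 1 and 27 months in limb muscle, while in MAT it stays between 4697 and 7920. The oldest libraries came from males alone.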

How the data were processed

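Small RNA of whole tissues was sequenced by the study. Per the paper's methods, the authors processed the reads with miRMaster and mapped them with Bowtie to RNA sequences of miRBase, GtRNAdb, RNACentral and Ensembl (the labels name mm10), and they deposited a normalised signal in reads per 1000000 mapped reads (rpmm) for 7883 RNAs. Whole reads were recovered from 100% of the values of other classes and 99.02% of the miRNA values (tolerance 0.05 reads, up to 1000 reads), and 393 RNAs identical to another in every library were counted once. Columns not used were 3 of the aging table and 176 of the parabiosis table. RNA classes were assigned by name and transcript, with 51 RNAs left unmatched and 29 in other classes.

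Groups came from tissue, age and sex labels. An RNA was tested in a tissue where at least 10% of its libraries, of all ages, reached 1 rpmm. log2(rpmm + 1) was compared with limma 3.58.1 in R 4.3.3 (two-sided, Benjamini-Hochberg, adjusted p under 0.05), so fold changes of low RNAs are understated. edgeR 4.0.16 on recovered reads was an alternative. The miRNA-scaled level is the value per 1000000 of the library's summed miRNA signal. Fits over the 4 tissues, the 4 scalings and the miRNA-scaled fits were added after the data were examined. Nothing says that libraries of a group came from separate litters, so p-values measure the spread between libraries. Steps were tested on simulated data.

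Named RNAs were those called in the same direction in 3 or 4 tissues, the 5 called miRNAs and the 3 other called RNAs of largest change per tissue and direction, RNAs called in opposite directions, and the 2 to 4 most abundant tested members of each list. Several miRNAs outside this rule were named after their values were seen. The libraries and lists were chosen with earlier results of these data known.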

Additional observations from a re-analysis of the deposited data

Results flagged for a closer look

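Dixon's criterion, for groups of 4 to 10 libraries, was applied to 91 combinations of a group and 1 of 13 values. In 10 of the 91 a library was far from the others of its group, which chance meets in about 1 in 20. MAT at 1 month, with 3 libraries, was not examined. Replicate 55 of skin at 1 month, the female library, was lowest for the Dlk1-Dio3 cluster (10126 miRNA rpm). Replicate 5 of MAT at 3 months, also female, was highest for the Dlk1-Dio3 cluster (8369), the miR-29 family (51773) and the miR-30 family (15344). Replicate 54 of skin at 3 months, female, was highest for the miR-322 and miR-503 cluster (2623) and miR-322-5p (2247). In GAT, female replicates 20 of 1 month (692) and 49 of 3 months (274) were highest for miR-206-3p, and male replicate 31 of 1 month was highest for miR-150-5p (3238). Replicate 14 of limb muscle at 1 month was highest for miR-664-3p (59.8).

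The age difference differed between the 4 tissues for 5 miRNAs by the interaction of tissue and age (limma, miRNA-scaled). The adjusted p was 5.66e-05 for miR-483-5p, 0.0123 for miR-3061-5p, 0.0136 for miR-664-3p, 0.014 for miR-574-5p and 0.0313 for miR-106a-5p. miR-574-5p had log2 fold changes of -2.19 in limb muscle, -0.50 in skin, 0.02 in GAT and -1.32 in MAT, and miR-106a-5p 0.90, -0.28, -0.53 and -1.26. The mean level of miR-106a-5p in limb muscle was 0.37 miRNA rpm at 1 month and 1.51 at 3 months, near the pseudocount of 1. Its interaction held in 32 of 39 cases with 1 library left out. Without replicate 21 of limb muscle at 1 month, the interaction called 1 miRNA, miR-483-5p.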

How the results depend on the processing

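No paired analysis was possible because the replicate numbers in the sample titles do not tie libraries of the 2 ages to each other. Several settings moved the counts of calls, and the cause was not tested. In limb muscle the 679 RNAs called became 37 with all ages in the fit, 0 without a filter, 4 with miRNA scaling, 396 with median ratios, 223 with males, 0 with the set and 4 with the plate as a covariate, 0 by edgeR with TMM and 393 without TMM, and 1073 by the ratio of means with an unadjusted p. Among miRNAs alone 33 were called on rpmm, 135 miRNA-scaled, and 148 by edgeR (149 without both replicates 21). The 135 became 85 with all ages and 32 with the set. In skin the 0 became 10 with all ages, 9 with the set, 4 with the plate, 84 by the ratio of means, 7 for miRNAs on rpmm, 35 miRNA-scaled and 34 by edgeR on miRNAs. The 35 became 76 with males and 87 with the set. In GAT the 0 became 80 by the ratio of means, 15 miRNA-scaled and 2 by edgeR on miRNAs, and the 15 became 8 with all ages, 0 with the set and 2 by edgeR. In MAT the 0 became 1127 with all ages, 8 with the set, 76 with the plate, 496 by edgeR without TMM and 568 by the ratio of means, and the 0 miRNA-scaled calls became 85 with all ages.

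RNAs called alike in 2 or more tissues, 0 on rpmm, were 5 with all ages, 161 by edgeR without TMM, 426 by the ratio of means, 2 for miRNAs on rpmm, 31 miRNA-scaled and 16 by edgeR on miRNAs. In 3 or more they were 10, 3 and 1 by the ratio of means, miRNA-scaled and edgeR on miRNAs. The 31 became 16 by edgeR, and the 3 became 6 with all ages, 14 with males, 0 with the set and 1 by edgeR. The ratio of means gave 5 RNAs in opposite directions. The common fit to all RNAs called 858, or 1876 with miRNA scaling and 316 with median ratios, and that to miRNAs called 171, or 112 on rpmm. The interaction called 15 RNAs, or 5 with a pseudocount of 0.5, 1 with miRNA scaling, 0 with median ratios, 3 with males and 5 for miRNAs, miRNA-scaled. Those 5 became 9 with males, 2 on rpmm and 28 with median ratios.

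Slopes over 6 to 27 months were called for 5 RNAs in limb muscle, or 12 with the set, 1 with males, 3 with sex, 0 over 6 to 21 months, 0 with median ratios, and for miRNAs, miRNA-scaled, 59, 50 with the set and 15 with males. In skin 484 became 300 with the set, 43 over 6 to 21 months, 253 with miRNA scaling, and for miRNAs 63, 46 with the set and 127 with males. In GAT 9 became 4 with the set, 0 with males, 1 over 6 to 21 months, 0 with median ratios, and for miRNAs 24, 6 with the set and 2 with males. In MAT 0 became 7 with the set, and for miRNAs 14, 36 with the set and 0 with males.

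Leaving out 1 library gave 22 (without limb muscle replicate 11 of 3 months) to 849 calls (without replicate 14 of 1 month) in limb muscle and 92 to 148 miRNA-scaled, 0 to 1 and 17 (without replicate 37) to 60 (without replicate 55) in skin, 0 to 0 and 0 (without replicate 8) to 18 in GAT, and 0 to 293 (without replicate 35 of 1 month) and 0 to 0 in MAT. Calls in 2 or more tissues ranged from 0 to 138 (without MAT replicate 35) and miRNA-scaled from 20 to 40. In 3 or more tissues they ranged from 0 to 0 and miRNA-scaled from 0 to 7, and opposite calls from 0 to 0. The common fit gave 281 (without MAT replicate 21) to 1355 (without skin replicate 19) and for miRNAs 155 to 176, and the interaction 5 to 108 (without limb muscle replicate 49 of 3 months) and miRNA-scaled 1 (without limb muscle replicate 21) to 31 (without MAT replicate 35). For the 98 RNAs named, 8299 of 9437 comparisons kept their direction and side of the threshold, 539 lost and 198 gained a call, 401 changed sign without a call, and 0 called values reversed. Groups of 3 to 6 libraries limit these comparisons.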
